A study of Mus musculus with 8 samples.

Results

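The enzymes and partners that write, copy and remove DNA methylation were examined as a group of 9 genes in migrating mouse primordial germ cells (PGCs), the precursors of sperm and eggs. The genes were chosen by name, each was represented by the array probe of highest mean that is annotated to it alone, and all 9 were found among the 19938 genes measured. Dnmt1, Uhrf1 and Hells stand for maintenance, Dnmt3a, Dnmt3b and Dnmt3l for de novo methylation, and Tet1, Tet2 and Tet3 for oxidation of the methyl mark. There were 4 WT embryos (Ror2+/+) and 4 embryos homozygous for the Y324C change in Ror2, a receptor tyrosine kinase for Wnt5a. All came from matings between Ror2 heterozygotes on a mixed strain background at embryonic day 9.5, and by the mating all carried the Oct4-ΔPE reporter, a fluorescent transgene driven by a part of the Pou5f1 regulatory region that is active in germ cells. GFP-positive cells were sorted from the posterior of each embryo and hybridised to 1 array per embryo. Replicates are therefore separate embryos, and p-values measure the spread between them. WT embryos 1 to 4 had 25, 25, 22 and 21 somites. The mutant embryos 1 to 4 had 24, 22 to 23, 23 and 21 to 22 somites.

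DNA methylation in mammals sits mainly on cytosines of CpG pairs. At each round of replication Uhrf1 recognises the half-methylated daughter DNA and brings in Dnmt1, which copies the mark, while the remodeller Hells opens chromatin for this step. Dnmt3a and Dnmt3b place new marks, Dnmt3l is a catalytically inactive partner of both, and the Tet proteins oxidise 5-methylcytosine as a step toward its removal. PGCs are known for losing most of their methylation while they migrate and enter the gonads, and loss of maintenance through low Uhrf1 together with Tet activity are the routes described for it.

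None of the 9 genes passed the test between genotypes. By limma with Benjamini-Hochberg adjustment over all genes, 0 of 9 had an adjusted p under 0.05, and 0 of 9 had an unadjusted p under 0.05, where 0% and 4.68% of all genes did (2.72% higher in mutants). The groups overlapped in all 9, and over all genes 2.52% did not overlap (1.08% with all mutants above all WT and 1.44% with all below). Of the 9 differences 6 were above 0, against 44.6% of all genes, and their median was 0.06 on the log2 scale, against -0.02 over all genes. Uhrf1 was the member that varied most between embryos. Its level spanned 1.98 log2 units, or 3.95-fold, and 97.4% of all genes had a smaller SD over the 8 arrays. In a bulk sort such as this one, fewer cells that express a gene and less RNA per cell cannot be told apart.

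The sorted cells carried germ cell transcripts. All 12 listed PGC markers lay above the level that 95% of olfactory and vomeronasal receptor genes stayed under (5.26 log2), a reference for signal from genes that are silent here. So did 5 of 7 hindgut, 2 of 7 mesoderm and 2 of 5 neural markers. For erythroid, endothelium and macrophage markers the counts were 3 of 6, 2 of 5 and 1 of 4. Passing this level therefore does not by itself set germ cells apart from other tissues. The mean of the 12 PGC markers ran from 9.49 to 9.82 in WT and from 9.67 to 9.76 in mutants, and WT 3 was lowest. WT 3 was also highest for the mesoderm, neural, erythroid and macrophage lists. The mesoderm mean was 5.59 there and from 5.03 to 5.33 in the other arrays. WT 3 and mutant 4 stood apart by sex-linked RNA, with Xist at 7.07 and 6.31 against 3.50 to 4.11 elsewhere. The mean of Y-linked genes was 3.74 and 3.71 in them, against 7.21 to 7.73 elsewhere. By this RNA both embryos read as female and the others as male. Probes of different genes differ in sensitivity, so the log2 levels below compare embryos within a gene and do not rank the genes.

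Dnmt1, the maintenance methyltransferase, gave a high and even signal. Its log2 values were 9.86, 9.37, 9.39 and 9.73 in WT 1 to 4. The values in mutants 1 to 4 were 9.64, 9.71, 9.84 and 9.70. The mutants lay within the range of the WT values. The difference was 0.13 ± 0.15 (SE), with a 95% interval from -0.19 to 0.46 and a limma adjusted p of 0.975.

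Hells, the remodeller that works with the maintenance step, was the least variable member, and 9.17% of all genes had a smaller SD over arrays. It measured 9.38, 9.27, 9.25 and 9.14 in WT 1 to 4. Mutants 1 to 4 had 9.24, 9.59, 9.41 and 9.32. Mutant 2 was highest and WT 4 lowest, and the difference of 0.13 ± 0.13 (SE) had a limma interval from -0.16 to 0.42.

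Uhrf1, the reader that recruits Dnmt1, spread widely in both groups. Its log2 values were 6.98, 5.80, 7.46 and 7.78 in WT 1 to 4. The mutant embryos had, in order, 6.35, 6.79, 7.47 and 6.76. The mutants lay inside the WT range, and the WT embryos alone supplied both the highest and the lowest value. The group means were 7.004 ± 0.87 and 6.84 ± 0.46 (SD, n = 4 each). The difference was -0.16 ± 0.39 (SE), and its 95% interval by limma ran from -1.02 to 0.70, or from 0.493-fold to 1.62-fold.

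**Figure D1:**
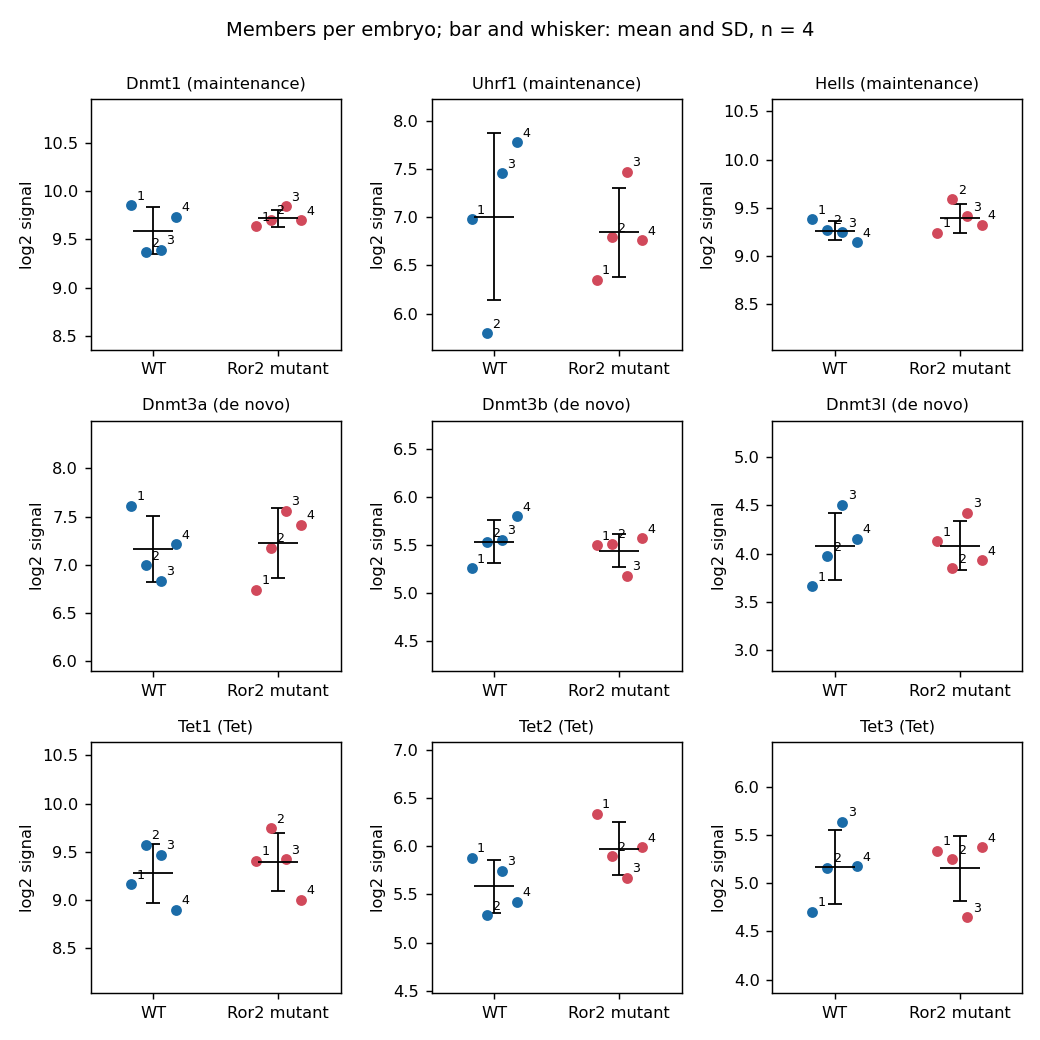
Log2 signal of the 9 genes in each embryo, WT in blue and Ror2 mutants in red, with embryo numbers beside the points and mean and SD (n = 4) as bar and whiskers; each vertical axis covers the same number of log2 units. The groups overlap in every panel, and Uhrf1 has the widest spread, from 5.80 in WT 2 to 7.78 in WT 4.

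Uhrf1 had the largest SD over the 8 arrays of the 9 members, and for this reason the bases before its start are shown. The RefSeq table (GRCm38.p6) lists windows for all 9 genes, 16 in all, and 2 of them belong to Uhrf1. The first lies wholly upstream of the gene record, at chr17:56303087-56303336 on the plus strand. It is given 5′ to 3′ with the CCAAT letters in capitals:
Uhrf1 upstream: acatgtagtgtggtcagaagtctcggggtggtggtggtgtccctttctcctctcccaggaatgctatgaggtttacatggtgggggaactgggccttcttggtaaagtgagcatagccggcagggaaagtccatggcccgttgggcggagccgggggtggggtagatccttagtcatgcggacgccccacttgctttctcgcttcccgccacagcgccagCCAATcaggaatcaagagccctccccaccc
The CCAAT letters, searched on both strands, begin 30 bases before this start, and 33.8% of all 250-base upstream windows hold them. A second search used TTTCGCGC on both strands, the letters of a site bound by E2F factors, which drive S phase genes. It matched 2 of the 16 windows of these genes, against 0.256% of 32851 windows overall. The letters themselves contain CpG pairs. The matching windows of Uhrf1 and Dnmt1 held 30 and 26 CpG pairs, where the median over all windows was 6. The shares were not compared at equal CpG content, so they do not show an excess of the site. The matches lay before the second listed start of Uhrf1, at chr17:56304118-56304145 on the plus strand, and before listed start 3 of Dnmt1, at chr9:20952825-20952852 on the minus strand, where the letters run as the reverse complement. Both are shown because they are the genes that read and copy the mark, with the matched letters in capitals:
Uhrf1 start 2: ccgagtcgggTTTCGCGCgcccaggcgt
Dnmt1 start 3: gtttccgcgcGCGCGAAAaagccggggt
The Uhrf1 match begins 185 bases before its start and the Dnmt1 match 219 bases before. No CCAAT letters overlap either match. These are descriptions of the reference sequence, and nothing about binding was measured.

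Among the de novo genes, Dnmt3a had a signal above 99.9% of the 1194 receptor genes. It measured 7.61, 6.99, 6.83 and 7.21 in WT 1 to 4. Values of 6.74, 7.18, 7.56 and 7.42 were found in mutants 1 to 4. WT 1 was highest and mutant 1 lowest, so the extremes fell in different groups without parting them. The difference was 0.06 ± 0.22 (SE) by limma, with an interval from -0.42 to 0.54. It was -0.11 when WT 3 and mutant 4 were left out.

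Dnmt3b, the other de novo methyltransferase, lay nearer to the signal of silent genes, above 97.1% of the receptors. Its log2 values were 5.26, 5.53, 5.55 and 5.80 in WT 1 to 4. The values in mutants 1 to 4 were 5.50, 5.51, 5.18 and 5.57. The lowest value was in mutant 3 and the highest in WT 4. The limma difference was -0.09 ± 0.15 (SE), with an interval from -0.43 to 0.24.

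Dnmt3l, the inactive partner, had a signal in the middle of the receptor genes, with 66.2% of them below it. It measured 3.66, 3.97, 4.51 and 4.16 in WT 1 to 4. Mutants 1 to 4 had 4.13, 3.85, 4.42 and 3.93. Its highest value was in WT 3, the array in which the mean of the receptors was also highest, 3.84 against 3.57 to 3.76 in the others. The part of this background in the Dnmt3l values was not tested. The limma difference was 0.01 ± 0.20 (SE).

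Tet1 gave a signal above all receptor genes. Its log2 values were 9.16, 9.57, 9.47 and 8.90 in WT 1 to 4. The mutant embryos had, in order, 9.41, 9.74, 9.42 and 9.01. Both groups had their lowest value in embryo 4. The limma difference was 0.12 ± 0.20 (SE), with an interval from -0.32 to 0.55.

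Tet1 has 3 probes of its own. Those ranked 1 and 2 by mean had the same 3 highest embryos, WT 2, WT 3 and mutant 2, and both were low in mutant 4, at 9.01 and 8.95. The probe ranked 3 gave another order. On the probe ranked 2 by mean the difference was -0.15 ± 0.19 (SE), and on the probe ranked 3 it was 0.06 ± 0.22. The probe of highest mean had its lowest value in WT 4, at 8.90. The probe ranked 3 had its lowest in WT 2, at 8.55, and its highest in mutant 4, at 9.40, where the first was at 9.01. Next on the probe ranked 3 was WT 3 at 9.35, and the remaining embryos were at 9.05 or lower. WT 3 and mutant 4 are the embryos that stood apart by Xist. The part of sex in this probe was not tested. The groups overlapped on all 3 probes.

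Tet2 had the widest gap between genotypes of the 9. It measured 5.88, 5.29, 5.74 and 5.43 in WT 1 to 4. Values of 6.34, 5.90, 5.67 and 5.99 were found in mutants 1 to 4. Of the mutants, 3 lay above all WT values, and mutant 3 lay inside the WT range. The ratio was 1.31-fold, with a 95% interval from 0.988 to 1.74, and the limma test gave an unadjusted p of 0.0588 and an adjusted p of 0.973. The sign held in all 16 alternatives tried, and the unadjusted limma p was under 0.05 in 5 of them, among them quantile normalization at 0.0308. The adjusted p stayed between 0.568 and 1.00. Its probe lay above 98.6% of receptor genes.

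Tet3 lay above 94.0% of the receptors, at a mean of 5.16 just under the level of 5.26 that 95% of them stayed under. It measured 4.70, 5.16, 5.64 and 5.18 in WT 1 to 4. The values in mutants 1 to 4 were 5.34, 5.25, 4.65 and 5.37. WT 3 was highest and mutant 3 lowest. The limma difference was -0.02 ± 0.22 (SE), and it became 0.050 after quantile normalization. On its second probe the difference was -0.07 ± 0.15.

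**Figure D2:**
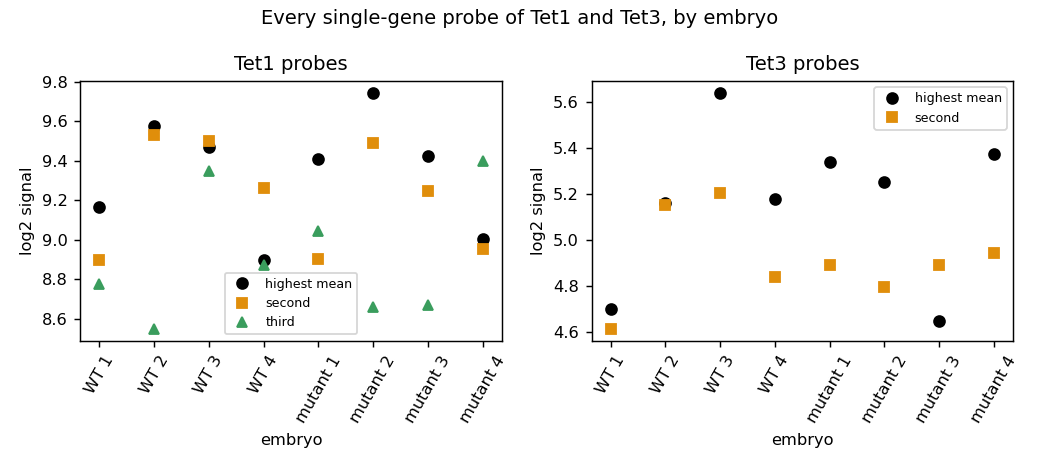
Log2 signal of every single-gene probe of Tet1 (3 probes) and Tet3 (2 probes) in the 8 embryos. The Tet1 probe ranked 3 orders the embryos differently from the other probes: mutant 4 is highest on the probe ranked 3 at 9.40 and next to lowest on the probe of highest mean at 9.01.

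The balance between the classes was followed as the difference of class means within each array. Each class mean weighs its genes equally, including Dnmt3l and Tet3, whose means lay under the 5.26 that 95% of receptor genes stayed under. Within the Tet class, mutant minus WT was 0.39 for Tet2, 0.12 for Tet1 and -0.02 for Tet3. Tet minus de novo was 1.07, 1.17, 1.32 and 0.78 log2 units in WT 1 to 4. Mutants 1 to 4 had 1.57, 1.45, 0.86 and 1.15. WT 4 and mutant 3 were the lowest of their groups, and the groups overlapped. The means differed by 0.17, less than the SD of 0.23 in WT and 0.32 in mutants. With 1 embryo left out this difference ran from 0.067 without mutant 1 to 0.30 without mutant 3, and it was 0.070 without WT 4. Tet minus maintenance differed by 0.13, with SDs of 0.41 and 0.39, and it turned sign without WT 4 (-0.019) and without mutant 1 (-0.014).

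**Figure D3:**
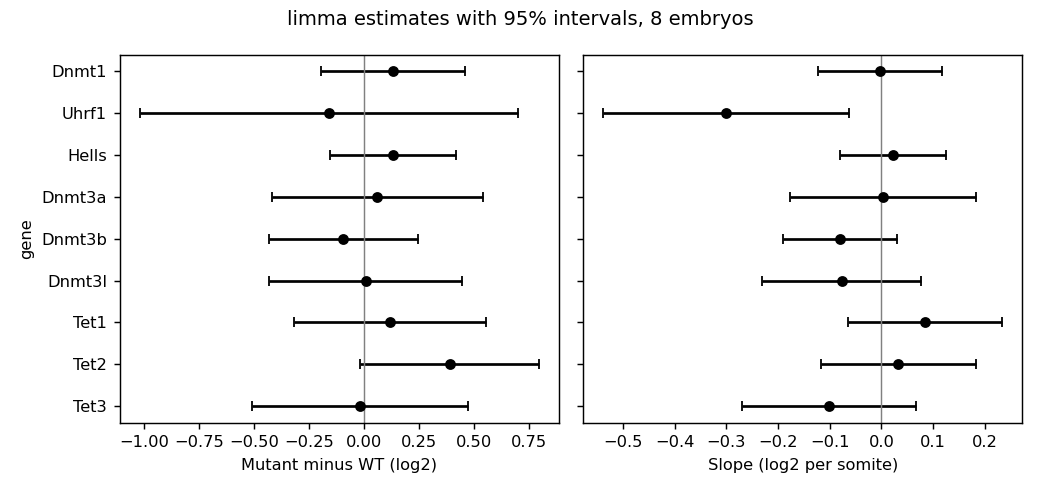
limma estimates with 95% intervals for the 9 genes: mutant minus WT on the left (log2) and the slope per somite with genotype in the model on the right (log2 per somite). All 9 intervals on the left and 8 of 9 on the right span 0; the exception is the Uhrf1 slope, from -0.54 to -0.06, which does not pass after adjustment over all genes.

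Somite number, which stages embryos of this age, entered a limma fit beside genotype. None of the 9 genes passed after adjustment (0% of all genes did), and 1 of 9, Uhrf1, had an unadjusted p under 0.05, where 9.74% of all genes did (5.02% with a positive and 4.72% with a negative slope). Slopes were positive in 4 of 9 members and in 40.5% of all genes. The Uhrf1 slope was -0.30 ± 0.11 log2 per somite (SE), or 0.812-fold, with an unadjusted limma p of 0.0188 and an adjusted p of 0.474. In WT the embryos of 21 and 22 somites had 7.78 and 7.46, and those of 25 somites had 6.98 and 5.80. Within the mutants, which span fewer somites, the embryo of 24 somites was lowest at 6.35 and that of 23 somites highest at 7.47. Fitted within each group, the slope was -0.35 in WT and -0.10 in mutants, and the difference between these slopes was not tested. Without WT 2 the slope was -0.17, with an unadjusted limma p of 0.108, and without WT 4 it was -0.27, with 0.0989. The slope was below 0 in all 16 alternatives, with adjusted limma p-values from 0.423 to 0.625.

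Markers of other tissues were set beside Uhrf1. The hindgut list was highest in mutant 4 at 6.33, where Uhrf1 was 6.76, and the mesoderm list was lowest in WT 1 at 5.03, where Uhrf1 was 6.98. The erythroid list was highest in WT 3 and WT 4, at 5.31 and 5.05, and so was the macrophage list, at 5.15 and 4.99; Uhrf1 was 7.46 and 7.78 in these embryos. In WT 2, where Uhrf1 was 5.80, these lists were at 4.91 and 4.70. Mutant 3, where Uhrf1 was 7.47, had 4.70 and 4.69 on the same lists. The PGC marker mean was highest in WT 4, at 9.82, and lowest in WT 3, at 9.49. The receptor genes, the reference for silent genes, also had their highest means in WT 3 and WT 4, at 3.84 and 3.76. Their mean was 3.74 in WT 2 and 3.62 in mutant 3. Only 3 of the 6 erythroid and 1 of the 4 macrophage genes had a mean above 5.26. The parts of cell makeup and of background signal in these values were not tested.

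**Figure D4:**
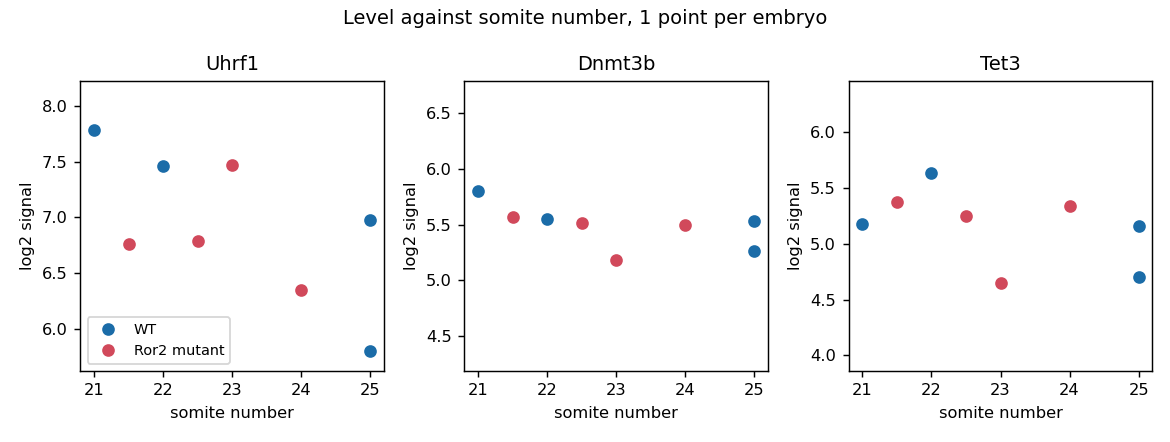
Log2 signal against somite number (midpoint where the label gives a range) for the member of smallest slope p in each class, 1 point per embryo, WT in blue and mutants in red; the vertical axes cover equal log2 spans. Uhrf1 runs from 7.78 at 21 somites to 5.80 in 1 of the embryos of 25 somites, while Dnmt3b stays between 5.18 and 5.80 and Tet3 between 4.65 and 5.64.

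The intervals of the other 8 slopes spanned 0. Dnmt3b, Dnmt3l and Tet3 had slopes of -0.08 ± 0.05, -0.08 ± 0.07 and -0.10 ± 0.07 log2 per somite (SE). After quantile normalization these were -0.058, -0.057 and -0.075. The signals of these genes lay nearest to the receptor genes. The receptor mean was 3.84 and 3.76 in the WT embryos of 22 and 21 somites, 3.59 and 3.74 in those of 25, and 3.57 to 3.72 in mutants. The part of background in these slopes was not tested. Tet1 had 0.08 ± 0.07 on its main probe, and its other probes gave -0.036 and -0.11. On the second Tet3 probe the slope was -0.022 ± 0.055. Dnmt1 and Dnmt3a, the main maintenance and de novo enzymes, had slopes of -0.0028 ± 0.053 and 0.0027 ± 0.080, with 95% intervals from -0.12 to 0.12 and from -0.18 to 0.18. Hells had 0.02 ± 0.05 and Tet2 had 0.03 ± 0.07.

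Genes that act beside these enzymes were read from 8 lists, of which none had a member past the adjusted limma threshold. Of the lists' members, those at an unadjusted p under 0.05 numbered 1 higher and 1 lower of 12 for repair of oxidised or deaminated bases, 1 higher of 8 for readers of methyl-CpG, 1 higher of 16 for cofactors and protectors, and 1 higher of 11 for the S-adenosylmethionine cycle. The lists of deaminases and Gadd45 genes (7 measured), Tet partners (7), germline genes kept silent by methylation (16) and germ cell determinants (9) had 0. Over all genes the share was 4.68%, of which 2.72% were higher in mutants. For the slope, members at an unadjusted p under 0.05 were all positive and numbered 2 of 12 in the repair list, 1 of 7 among the deaminases and Gadd45 genes, 2 of 11 in the S-adenosylmethionine cycle, 2 of 16 among the silenced germline genes and 1 of 9 among the determinants, where 5.02% of all genes were positive at that p; the other lists had 0. The median differences ran from -0.14 for the readers to 0.17 for the deaminases.

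In the repair list, Polb, the polymerase that fills the gap in base excision repair, was above all WT values in every mutant. It measured 7.83, 7.71, 7.64 and 6.17 in WT 1 to 4. The mutant embryos had, in order, 8.03, 7.997, 8.54 and 7.96. The difference was 0.80 ± 0.33 (SE) with a limma adjusted p of 0.973, and WT 4 lay far below the other WT embryos. WT 4, of 21 somites, was the youngest WT embryo, and the Polb slope was 0.25 ± 0.09 log2 per somite (SE). Neil1, a glycosylase, differed by -0.40 ± 0.14 (SE). Its mean of 5.01 lay under 5.26, the level that 95% of receptor genes stayed under. The repair ligase Lig3 had the smallest slope p of this list, at 0.16 ± 0.06 log2 per somite.

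Among the readers, Zbtb33 (Kaiso) differed by 0.81 ± 0.26 (SE), the largest difference in the 8 lists. It was 4.70, 5.63, 5.01 and 4.84 in WT 1 to 4. WT 1, WT 3 and WT 4 lay under 5.26, the level that 95% of receptor genes stayed under. Values of 5.65, 5.64, 5.56 and 6.57 were found in mutants 1 to 4. WT 2 lay among the mutants, so the groups overlapped, and the limma adjusted p was 0.973. Mbd3, a subunit of the NuRD repressor, differed by 0.40 ± 0.29, and Mbd2 had a slope of 0.14 ± 0.07.

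Of the partners of the maintenance step, Usp7, a deubiquitinase that stabilises Uhrf1 and Dnmt1, lay below all WT values in every mutant, yet by only -0.14 ± 0.11 (SE), with an unadjusted limma p of 0.259. Pcna, the replication clamp that Dnmt1 binds, differed by -0.03 ± 0.12. Cdca7, the partner of Hells, differed by -0.31 ± 0.17, and the histone methyltransferase Ehmt2 by 0.31 ± 0.14. Cxxc1, a CpG-binding protein, had the smallest slope p of this list, at 0.11 ± 0.06 log2 per somite. Usp7 and Pcna were named after their values were seen.

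In the S-adenosylmethionine cycle, which supplies the methyl donor, Mtr (methionine synthase) lay above all WT values in every mutant. It measured 7.39, 7.37, 7.08 and 7.41 in WT 1 to 4. The values in mutants 1 to 4 were 7.62, 7.76, 7.56 and 7.66. The difference was 0.34 ± 0.13 (SE) with a limma adjusted p of 0.973. Ahcyl1 differed by 0.10 ± 0.23, and Mthfd1 had a slope of 0.16 ± 0.05 per somite.

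The Tet partner list holds the isocitrate dehydrogenases that make or turn over 2-oxoglutarate, the cosubstrate of Tet enzymes. Idh3a and Idh2 differed by 0.41 ± 0.30 and 0.23 ± 0.15 (SE), and Idh3a had a slope of 0.19 ± 0.09. Among the deaminases, Apobec4 and Apobec2 differed by 0.27 ± 0.19 and 0.33 ± 0.24. The mean of Apobec4, 2.62, lay below the receptor median of 3.64, so its difference is between values in the range of silent genes. Gadd45b, a stress gene that has been linked to demethylation, had a slope of 0.33 ± 0.07 per somite, with an adjusted limma p of 0.310. It was 5.31 in the WT embryo of 21 somites and 5.84 in that of 22, against 6.74 and 6.47 at 25. Mutants 1 to 4 had 6.78, 6.73, 6.32 and 5.53, lowest in the youngest.

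Germline genes that methylation keeps silent in other tissues had 0 members past the limma threshold. Of 16 measured, 11 lay above 0, where 44.6% of all genes did, with a median of 0.12 against -0.02 over all genes. Only Ddx4, Tdrkh, Tex101 and Stk31 had means above 5.26, the level that 95% of receptor genes stayed under. This count and median therefore rest mostly on probes in the range of silent genes. Dazl and Sycp1 differed by 0.24 ± 0.14 and 0.26 ± 0.17 (SE), at low signal. Tdrkh had a slope of 0.15 ± 0.05 per somite. Of the germ cell determinants, Pou5f1 differed by 0.11 ± 0.14 and Tcl1 by 0.42 ± 0.52. Tcl1 had the steepest slope in these lists, at 0.50 ± 0.10 log2 per somite with an adjusted limma p of 0.312. It measured 5.31 and 6.46 in the WT embryos of 21 and 22 somites and 7.84 and 8.22 in those of 25. Mutants 1 to 4, of 24, 22.5, 23 and 21.5 somites (midpoints), had 7.38, 7.16, 7.48 and 7.50, with the highest value in the youngest of them.

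**Figure D5:**
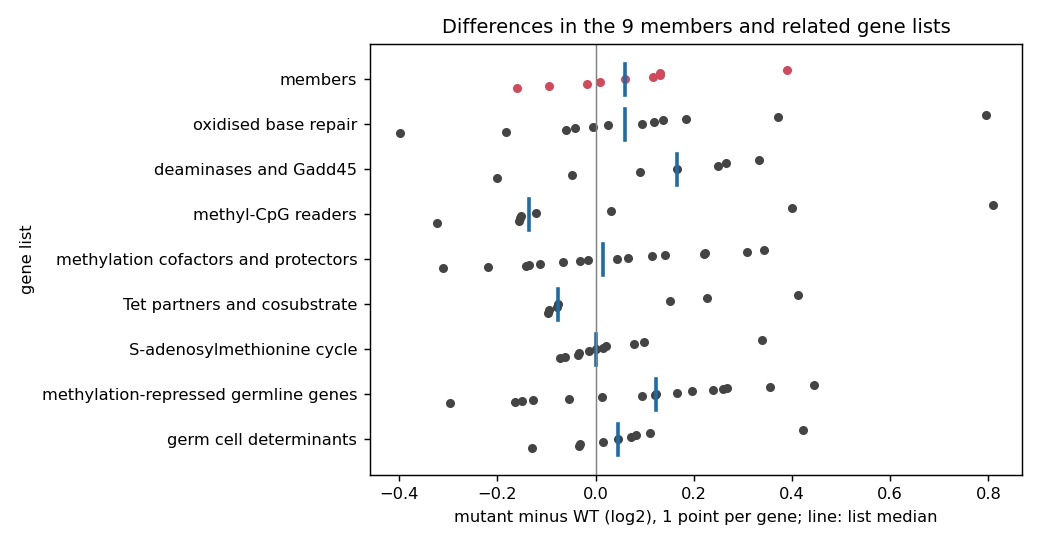
Mutant minus WT (log2) for the 9 methylation genes (red) and for each measured gene of the 8 related lists (grey), with the list medians as blue lines. The medians lie between -0.14 and 0.17, and the points farthest from 0 are Zbtb33 at 0.81 and Polb at 0.80.

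The profiles most like the 3 members of largest SD were sought among 9605 genes of above-median level by the root-mean-square (RMS) difference of the centred log2 values over the 8 arrays. Mrps23, a protein of the mitochondrial ribosome, was nearest to Uhrf1 at 0.265, where the RMS of the Uhrf1 profile itself was 0.608, followed by Wdr70 at 0.314 and Inpp5k at 0.330. Cib1 was nearest to Tet2 at 0.0979, followed by Scamp5 and Sass6. The nearest to Tet3 were Krtap11-1 at 0.0904, Vax2 and Grifin, genes best known from hair, eye and lens.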

How the data were processed

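The authors deposited 1 log2 value per probe and array; the log2 scale was inferred from the range of the values, and their background correction and normalization: not given in the sources used here. Array medians ran from 5.37 to 5.58. Of 35557 probes, 21789 had 1 gene symbol in the platform annotation and 1621 had several, which named no gene; 12147 were unnamed here. The probe of highest mean stood for each of 19938 genes (999 had several). Differences and somite slopes were fitted across all genes with limma 3.58.1 in R 4.3.3 (lmFit, eBayes), with Benjamini-Hochberg adjustment and a threshold of 0.05; intervals cover 95%. SE is from limma, and SD is over 4 embryos. The labels do not say which embryos shared a litter. The fits were also run on simulated data with planted effects larger than those of the members. That run does not show what the fits miss at the size of the members' effects. All 9 members were named, and from each list the 2 genes of smallest p for genotype and the 1 for slope. The members and lists were chosen with earlier results of these data known. Sequences are from RefSeq, where all 9 members matched by symbol. Listed genes without a probe of their own, among them Tdg, Mat2a and Ahcy, were not analysed here. The RMS search left out predicted genes. The alternatives were quantile normalization, median centring, a level filter, a replicate block, a somite covariate, an intensity trend, no genotype term, other somite values, other probes and omitted embryos.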

Additional observations from a re-analysis of the deposited data

Results flagged for a closer look

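Tet3 in mutant 3 had a log2 value of 4.65, while the other mutants lay between 5.25 and 5.37. This gap is large for a group of 4 by Dixon's criterion, which flags about 1 in 20 groups by chance, and 18 groups were checked. On the second Tet3 probe mutant 3 was at 4.89, inside the range of the other mutants from 4.79 to 4.94.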

How the results depend on the processing

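No member passed the limma threshold under any of the 16 alternatives run for each comparison, or on the other probes of Tet1 and Tet3, which were added after seeing the data. Of 288 member values under alternatives 253 kept their direction and 35 turned. Mutant minus WT turned for Tet3 after quantile normalization (0.050), after median centring (0.043) and without WT 3 and mutant 4 (0.065), for Dnmt3l with the somite covariate (-0.030), for Uhrf1 and Dnmt3a without WT 3 and mutant 4 (0.019 and -0.11) and for Tet1 on its probe ranked 2 (-0.15). Slopes turned for Dnmt3a after quantile normalization (-0.027), without WT 3 and mutant 4 (-0.016), without genotype (-0.00097) and at the lower end of the somite range (-0.0016), for Dnmt1 after median centring (0.021), and for Tet1 with the mean of its probes (-0.021) and on its probes ranked 2 and 3 (-0.036 and -0.11). The causes were not tested. With 1 embryo left out, differences ran from -0.56 to 0.10 for Uhrf1, -0.053 to 0.22 for Dnmt3a, -0.13 to 0.15 for Dnmt3l, -0.0083 to 0.25 for Tet1 and -0.17 to 0.15 for Tet3. Slopes then ran from -0.056 to 0.042 for Dnmt1, -0.085 to 0.061 for Dnmt3a and -0.014 to 0.10 for Tet2. Members whose groups did not overlap then numbered 0 to 1, the 1 being Tet2 without mutant 3.

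Over all genes, slopes past the threshold numbered 0 with all embryos, 1 at the upper end of the somite range (Commd6), 5 without WT 3 and mutant 4 (Commd6, Igfbp2, Mir15a, Mir30e and Podxl), and 0 to 2 with 1 embryo left out. Genes at an unadjusted p under 0.05 for genotype numbered 934, or 1716 without WT 1 and 538 of the genes above the median level, of which fewer were tested; for the slope they numbered 1942, or 1046 above that level. With the replicate number as a block 0 genes were called for genotype and 891 had an unadjusted p under 0.05; the Tet2 difference stayed 0.39, with an unadjusted limma p of 0.0495. Same-numbered embryos correlated from -0.19 to 0.10, and differently numbered ones from -0.27 to 0.25. Whether the numbers pair the embryos cannot be settled from so few pairs. The number of arrays and the lack of scanner background limit what low signals such as Dnmt3l and Tet3 can show.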

Other observations

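CpG pairs in the 250 bases before each listed start of the 9 genes ran from 2 (first start of Dnmt1) to 51 (Tet2), where the median over all windows was 6. The 3 starts of Dnmt3l had 5, 4 and 3, and the 3 of Dnmt3a had 38, 40 and 15. No methylation was measured in these samples.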
